A study of Mus musculus with 24 samples.

Results

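Lipogenesis and lipid droplet genes were followed in kidney RNA of 24 male Crl:CD1(ICR) mice, 1 array per mouse. The 34 genes were grouped by function, in a list drawn up with earlier results of these data known: regulators of lipogenesis, enzymes that make, desaturate and elongate fatty acids, enzymes that build triglyceride, lipases with their activator and inhibitors, and droplet coat proteins. They were found by symbol through the accessions of the array's probes, and 34 of 34 were among the 17736 genes tested, of 22911 named genes on the array. Sham mice (n = 6) received vehicle and normal feed. Mice called DKD, for diabetic kidney disease (n = 9), received 90 mg/kg of alloxan into a vein 3 days before grouping, which destroys the insulin-producing cells of the pancreas, and normal feed. The enarodustat group (n = 9) received the same alloxan dose and feed holding 0.01% enarodustat. Enarodustat blocks prolyl hydroxylase enzymes and so stabilises hypoxia-inducible factor (HIF), a transcription factor of the response to low oxygen. Kidneys were taken 16 days after grouping, and both diabetic groups had been matched on blood glucose and body weight. Ages are not given in the sources used here.

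De novo lipogenesis turns cytosolic citrate into acetyl-CoA, malonyl-CoA and then palmitate, which is desaturated, elongated and esterified to triglyceride. The transcription factor SREBP-1, encoded by Srebf1, drives many of these genes and is itself induced by insulin. Triglyceride is stored in droplets whose coat proteins gate access of the lipases. The proximal tubule, the main cell type of the kidney cortex by mass, lives largely on fatty acid oxidation, and droplets in tubule cells are a known feature of diabetic kidneys.

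Levels are log2 signals of 1 probe per gene, less the 75th percentile of that array's log2 signals, so a level compares arrays for that gene and not one gene with another. The 24 arrays filled 3 slides, each with 2 sham, 3 DKD and 3 enarodustat arrays. The upper row of each slide carried all of its sham arrays and the lower row all of its enarodustat arrays, whereas DKD arrays stood in both (6 upper, 3 lower), so row and group cannot be told apart between the sham and enarodustat arrays alone. Arrays of 1 group correlated at 0.964 to 0.991, spots well above background numbered 37716 to 44732 of 59305, and enarodustat 3 carried a quality warning of the scanner software. Of 12 HIF target genes listed to check the drug, 6 rose in enarodustat over DKD, among them the lactate exporter Slc16a3 by 3.03 ± 0.17 (SE; adjusted p = 4.27e-11). Proximal tubule markers averaged 6.13 to 6.37 in sham, 5.94 to 6.25 in DKD and 5.83 to 6.09 in enarodustat arrays, so the defining genes of kidney tissue were present on all arrays. Adipoq and Ucp1, which define white and brown fat, were well above background on 0 of 24 arrays, and Plin1, the coat protein of fat cell droplets, on 2. The adrenal enzymes Cyp11a1 and Cyp11b2 were well above background on 0 of 24. In the wider lists, 5 of 8 adrenal cortex, 5 of 7 brown adipocyte and 7 of 10 white adipocyte genes were well above background on at least 6 arrays. Of the adrenal and brown adipocyte genes only Star, of the adrenal list, passed in a comparison, and it rose in enarodustat against sham. Of the white adipocyte genes, Plin4 rose in DKD against sham and Fabp4 rose in all 3 comparisons. The part of such tissue in the values of the members was not tested.

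The upstream sequences of 5 members are shown because their genes carry the main contrasts described here: the regulator Srebf1 and its classical target Fasn, which fell in diabetic kidneys, Acacb and Elovl6, which rose, and Hilpda, which holds the core of a hypoxia response element. Each run is the 250 bases before a start site, 5′ to 3′ on the gene's strand, from RefSeq on assembly GRCm38.p6. Capitals mark ACGTG (the core of the hypoxia response element) and CCAAT (the NF-Y box), searched on both strands, so ATTGG and CACGT are matches of the opposite strand.
Srebf1, chr11:60210472-60210721, minus strand: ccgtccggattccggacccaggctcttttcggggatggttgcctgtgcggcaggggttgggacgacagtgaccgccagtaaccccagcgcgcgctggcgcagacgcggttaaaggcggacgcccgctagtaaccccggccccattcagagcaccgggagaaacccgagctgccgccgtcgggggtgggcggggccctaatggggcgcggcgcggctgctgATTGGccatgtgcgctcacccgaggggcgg
Fasn, chr11:120824548-120824797, minus strand: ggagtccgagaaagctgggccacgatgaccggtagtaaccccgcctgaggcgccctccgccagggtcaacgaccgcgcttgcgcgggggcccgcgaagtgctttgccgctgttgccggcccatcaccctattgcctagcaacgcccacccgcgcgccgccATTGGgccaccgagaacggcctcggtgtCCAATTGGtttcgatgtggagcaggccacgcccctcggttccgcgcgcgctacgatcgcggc
Acacb, chr5:114165268-114165517, plus strand: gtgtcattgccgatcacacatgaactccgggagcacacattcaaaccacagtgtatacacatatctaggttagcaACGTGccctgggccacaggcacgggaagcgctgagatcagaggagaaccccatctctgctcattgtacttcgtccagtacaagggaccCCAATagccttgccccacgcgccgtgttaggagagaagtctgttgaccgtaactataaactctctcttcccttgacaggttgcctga
Elovl6, chr3:129532136-129532385, plus strand: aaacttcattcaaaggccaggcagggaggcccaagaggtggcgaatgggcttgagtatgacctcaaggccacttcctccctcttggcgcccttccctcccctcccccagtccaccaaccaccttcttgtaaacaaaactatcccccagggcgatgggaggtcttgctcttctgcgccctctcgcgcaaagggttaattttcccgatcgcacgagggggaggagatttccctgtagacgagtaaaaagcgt
Hilpda, chr6:29272376-29272625, plus strand: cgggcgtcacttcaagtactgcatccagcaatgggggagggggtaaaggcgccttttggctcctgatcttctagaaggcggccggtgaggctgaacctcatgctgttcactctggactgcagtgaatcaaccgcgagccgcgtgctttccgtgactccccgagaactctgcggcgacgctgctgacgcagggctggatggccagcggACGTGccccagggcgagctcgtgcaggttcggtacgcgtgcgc
The Fasn window held 3 CCAAT matches at 90, 62 and 59 bases before the start, and the last pair overlap within CCAATTGG. The Srebf1 window shown is 1 of 3 start sites and held a match 30 bases before the start, and the Acacb window held CCAAT at 87 and ACGTG at 175 bases. Hilpda held ACGTG 43 bases before 1 of its start sites. Elovl6 held neither motif in these 250 bases. Of the 34 members, 29 matched a window in the table, 41 windows in all. CCAAT stood in 15 of the 41 windows (33.8% of all 32851 windows) and ACGTG in 12 (16.6% of all windows). The sterol response element of the LDL receptor type, TCACNCCAC, stood in 0 of 41 (1.05% of all windows). A match is a run of letters and not a measured binding site, and its absence says only that these letters are not in the window.

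In diabetic kidneys the enzymes of the cytosolic route to palmitate were mostly lower, with its regulator Srebf1, and 5 other members were higher. Of 34 members, 8 fell and 5 rose in DKD against sham, 13 in all or 38.2%, while 11.6% of all genes tested passed (5.47% higher and 6.13% lower). The fallers were Srebf1, Acly, Acaca, Fasn, Me1, Scd1, Fads2 and Agpat3, and the risers were Acacb, Elovl6, Lpin2, Mgll and G0s2. The median change of the members was 0.05, against −0.01 over all genes, and their median absolute change was 0.34 against 0.17. DKD and sham arrays did not overlap for 4 members, Srebf1, Me1, Fads2 and Lpin2, or 11.8%, while 3.4% of all genes did not overlap. RNA was taken from whole tissue, so fewer cells of a type and less RNA per cell cannot be told apart. Among cell type markers, 7 of 8 collecting duct principal cell genes rose, with a mean level of 0.05 to 0.72 in sham and 0.83 to 1.24 in DKD arrays. Of 10 proximal tubule markers 1 rose and 2 fell, of 10 macrophage markers 1 fell, and 0 of 6 podocyte markers passed by limma (3 with an unadjusted p under 0.05), while the podocyte mean was −0.06 to 0.30 in sham and 0.26 to 0.66 in DKD. The part of these cell types in the changes of the members was not tested.

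Srebf1 stood in sham kidneys at 2.80 to 3.56 (median 3.45), in DKD at 1.88 to 2.65 (median 2.09) and with enarodustat at 1.94 to 2.57 (median 2.26). Every diabetic kidney, treated or not, lay below every sham kidney. Srebf1 fell by 1.14 ± 0.13 (SE), or 2.21-fold, in DKD (adjusted p = 1.35e-05). Thrsp, known as Spot 14, a small protein of lipogenic tissues that modulates fatty acid synthesis, differed by 0.59 in DKD (adjusted p = 0.0796). Its levels spanned −2.56 to −1.41 in sham, −2.15 to −0.44 in DKD and −1.73 to −0.84 with enarodustat. A second probe of Thrsp changed by 0.21 in DKD.

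Fatty acid synthesis was represented by 6 enzymes, of which 4 fell, 1 rose and 1 did not pass. Acly, ATP citrate lyase, which makes cytosolic acetyl-CoA from citrate, stood at 3.96 to 4.17 in sham (median 4.06), 3.43 to 3.99 in DKD (median 3.67) and 3.44 to 3.85 with enarodustat (median 3.67). It fell by 0.34 ± 0.08 in DKD (adjusted p = 0.00802), with 8 of 9 DKD arrays below all sham arrays. Me1, the malic enzyme that supplies NADPH, was tightly held in sham at 5.97 to 6.16 (median 6.13) and lower in all 9 DKD arrays, at 4.80 to 5.91 (median 5.35). It stood at 5.34 to 6.04 with enarodustat (median 5.59), and its fall of 0.71 ± 0.14 in DKD passed (adjusted p = 0.00127). Fasn, fatty acid synthase, spread widely in DKD. Its levels were 3.58 to 4.09 in sham (median 3.81), 2.09 to 3.98 in DKD (median 3.08) and 2.65 to 3.82 with enarodustat (median 3.10). Fasn fell by 0.85 ± 0.23 in DKD, or 1.80-fold (adjusted p = 0.0187), with 8 of 9 DKD arrays below the lowest sham array and DKD 5 among the sham arrays. Acss2, which makes acetyl-CoA from acetate, differed by −0.03 (adjusted p = 0.900).

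The acetyl-CoA carboxylases, which make malonyl-CoA, moved in opposite directions. Acaca encodes the cytosolic isozyme that feeds synthesis, and Acacb the isozyme at the mitochondrial surface whose malonyl-CoA restrains the entry of fatty acids into mitochondria. Acaca stood at 1.37 to 1.64 in sham (median 1.46), 0.37 to 1.50 in DKD (median 1.08) and 0.46 to 1.14 with enarodustat (median 0.90). Acacb stood at −0.26 to 0.29 in sham (median 0.22), 0.09 to 1.44 in DKD (median 0.75) and 0.32 to 1.02 with enarodustat (median 0.81). In each case 8 of 9 DKD arrays lay outside the sham range. Acaca fell by 0.45 ± 0.13 (adjusted p = 0.0238) and Acacb rose by 0.64 ± 0.15 (adjusted p = 0.00724). The rise of Acacb rests on its brightest probe, since a second probe changed by −0.40 and the mean of both by 0.12, which did not pass. One probe of Acaca changed by only −0.06 in DKD, and the calls of Acaca, Fasn and Acly each ended in 3 or 4 of the other processing settings, given with those settings.

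**Figure D1:**
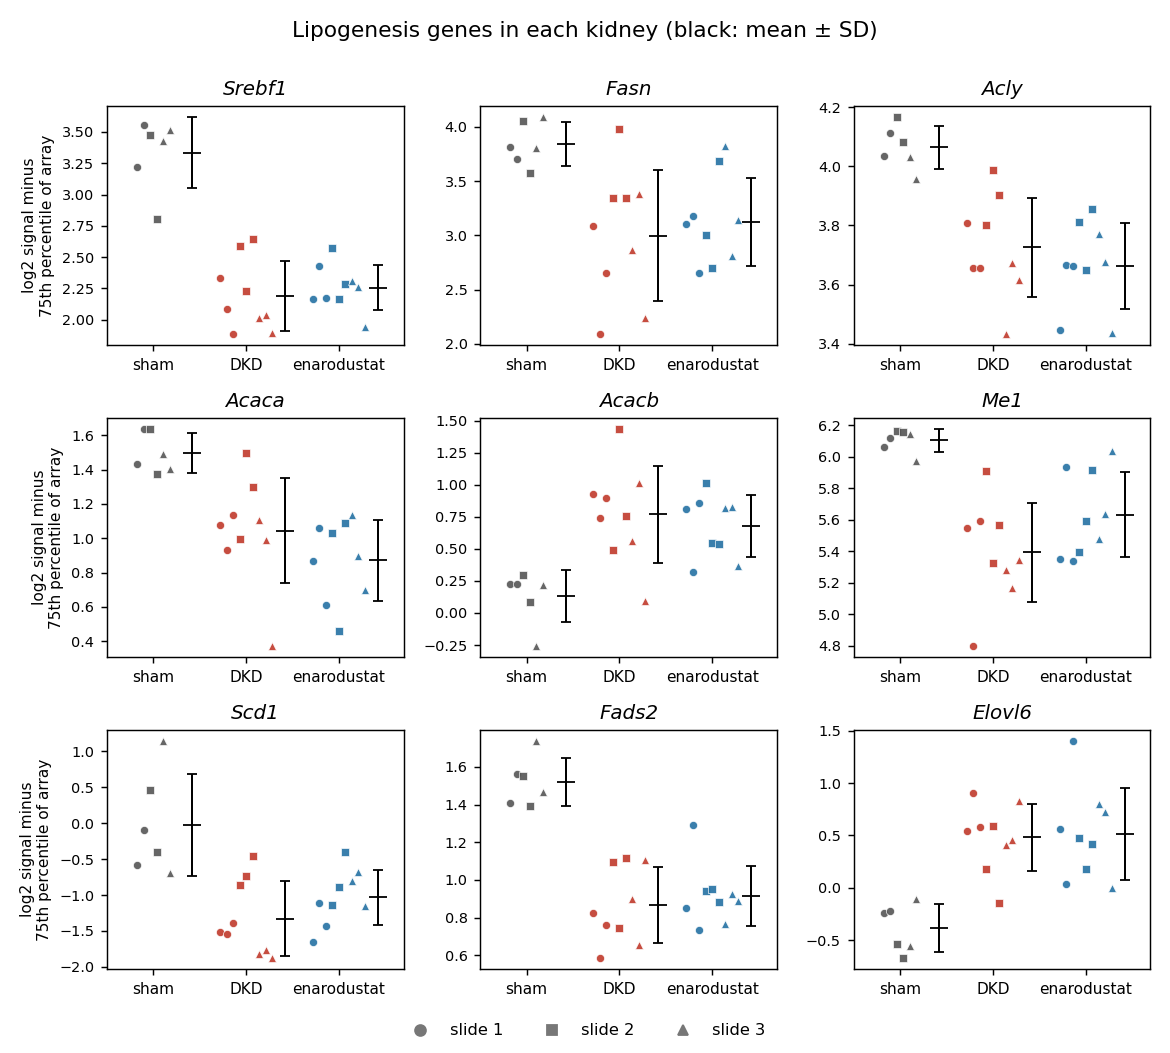
Levels of 9 lipogenesis genes in each kidney, on the log2 scale (signal less the array's 75th percentile), by group, with marker shape for the slide and a black mark for the mean ± SD. For Srebf1, Fads2 and Me1 every DKD point lies below every sham point, and for Acacb and Elovl6 8 of 9 DKD points lie above the sham range.

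Among 8 desaturases and elongases, 2 fell, 1 rose and 5 did not pass. Scd1, the stearoyl-CoA desaturase that makes oleate, stood at −0.70 to 1.15 in sham (median −0.25), −1.88 to −0.46 in DKD (median −1.51) and −1.65 to −0.40 with enarodustat (median −1.12). Its fall of 1.30 ± 0.27 in DKD, or 2.46-fold, had the largest size among the members (adjusted p = 0.0023). The sham arrays themselves spread by SD 0.71. Fads2, the delta-6 desaturase of polyunsaturated fatty acids, was lower in all 9 DKD arrays. It stood at 1.39 to 1.74 in sham (median 1.51), 0.59 to 1.12 in DKD (median 0.82) and 0.74 to 1.29 with enarodustat (median 0.89), a fall of 0.65 ± 0.09 in DKD (adjusted p = 0.000119). Elovl6, which extends palmitate to stearate and lies beside Scd1 in the pathway, moved the other way. It stood at −0.67 to −0.11 in sham (median −0.39), −0.14 to 0.90 in DKD (median 0.54) and at most 1.40 with enarodustat (median 0.48), and it rose by 0.87 ± 0.18 in DKD (adjusted p = 0.00261). The 5 that did not pass, Scd2, Fads1, Elovl1, Elovl5 and Elovl7, differed by −0.33 to 0.17 (adjusted p = 0.0616 or more). Scd1, Fads2, Elovl6, Me1 and Srebf1 passed in every other processing setting run on all slides together.

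Of 7 triglyceride synthesis genes, 1 rose, 1 fell and 5 did not pass. Agpat3, an acyltransferase that makes phosphatidic acid, stood at 5.12 to 5.48 in sham (median 5.34), 4.38 to 5.19 in DKD (median 4.85) and 4.53 to 5.19 with enarodustat (median 4.93). It fell by 0.42 ± 0.11 in DKD (adjusted p = 0.0157). Lpin2, a phosphatidic acid phosphatase of the lipin family, stood at 2.22 to 2.47 in sham (median 2.33), 2.48 to 3.06 in DKD (median 2.77) and 2.45 to 2.94 with enarodustat (median 2.56). All 9 DKD arrays lay above the sham arrays, and Lpin2 rose by 0.46 ± 0.10 (adjusted p = 0.00518). Its other probes changed by 0.29 and 0.11, and the mean of its probes, 0.29, did not pass. Gpam, which starts glycerolipid synthesis in mitochondria, Agpat2, Lpin1 and the final acyltransferases Dgat1 and Dgat2 differed by −0.11 to 0.15 (adjusted p = 0.510 or more).

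Among 7 genes of lipolysis and its control, 2 rose and 5 did not pass. G0s2 encodes an inhibitor of the adipose triglyceride lipase. It stood at −0.60 to 0.57 in sham (median 0.23), 0.19 to 2.22 in DKD (median 1.09) and −0.40 to 1.58 with enarodustat (median 0.69). G0s2 rose by 1.03 ± 0.29 in DKD, or 2.04-fold (adjusted p = 0.0237), with 7 of 9 DKD arrays above all sham arrays. Mgll, the monoglyceride lipase that takes the last fatty acid off glycerol, stood at 3.04 to 3.68 in sham (median 3.22), 3.12 to 4.53 in DKD (median 3.80) and 3.53 to 4.52 with enarodustat (median 3.95). It rose by 0.57 ± 0.18 in DKD (adjusted p = 0.0377), with 7 of 9 DKD arrays above the sham range. With slide row as a term neither passed, at 0.72 for G0s2 and 0.51 for Mgll. Pnpla2, the adipose triglyceride lipase itself, differed by 0.06, its activator Abhd5 by −0.31 (adjusted p = 0.168) and the hormone-sensitive lipase Lipe by 0.34. Pnpla3, a droplet lipase, differed by 0.21 on its brightest probe and −0.58 on another. Hilpda, a HIF-inducible inhibitor of the same lipase as G0s2, differed by 0.32 (adjusted p = 0.231).

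None of the 4 droplet coat genes passed by limma, at changes of 0.20 to 1.00, 2 of them with an unadjusted p under 0.05. Plin2, the coat protein of droplets outside fat tissue, stood at 0.48 to 2.73 in sham (median 1.09), 1.32 to 4.08 in DKD (median 1.99) and 1.38 to 2.45 with enarodustat (median 1.99). DKD 3, 8 and 9 exceeded all sham arrays, and the other 6 DKD arrays lay within the sham range. Its change of 1.00 ± 0.40 in DKD came with SDs of 0.94 in sham and 1.01 in DKD (adjusted p = 0.110), and its SD with enarodustat was 0.32. A second probe of Plin2 changed by 0.50 in DKD (unadjusted p = 0.0757 by limma). In enarodustat against sham that probe changed by 0.096, and the brightest probe by 0.50. Within slides the Plin2 change was 0.69, 0.11 and 2.21. Cidec, which fuses droplets in fat cells, was well above background on 4 of 6 sham, 9 of 9 DKD and 8 of 9 enarodustat arrays, with a change of 0.75 in DKD (adjusted p = 0.105). Plin3, a coat of nascent droplets, and Plin5, which tethers droplets to mitochondria, differed by 0.23 and 0.20. For the white adipocyte list, beside Cidec and Plin2, 2 of 7 tested genes rose in DKD (Plin4 and Fabp4), and the mean of its 10 genes was −4.17 to −3.46 in sham, −3.82 to −3.15 in DKD and −3.82 to −3.04 with enarodustat. The part of fat cells in these values was not tested.

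**Figure D2:**
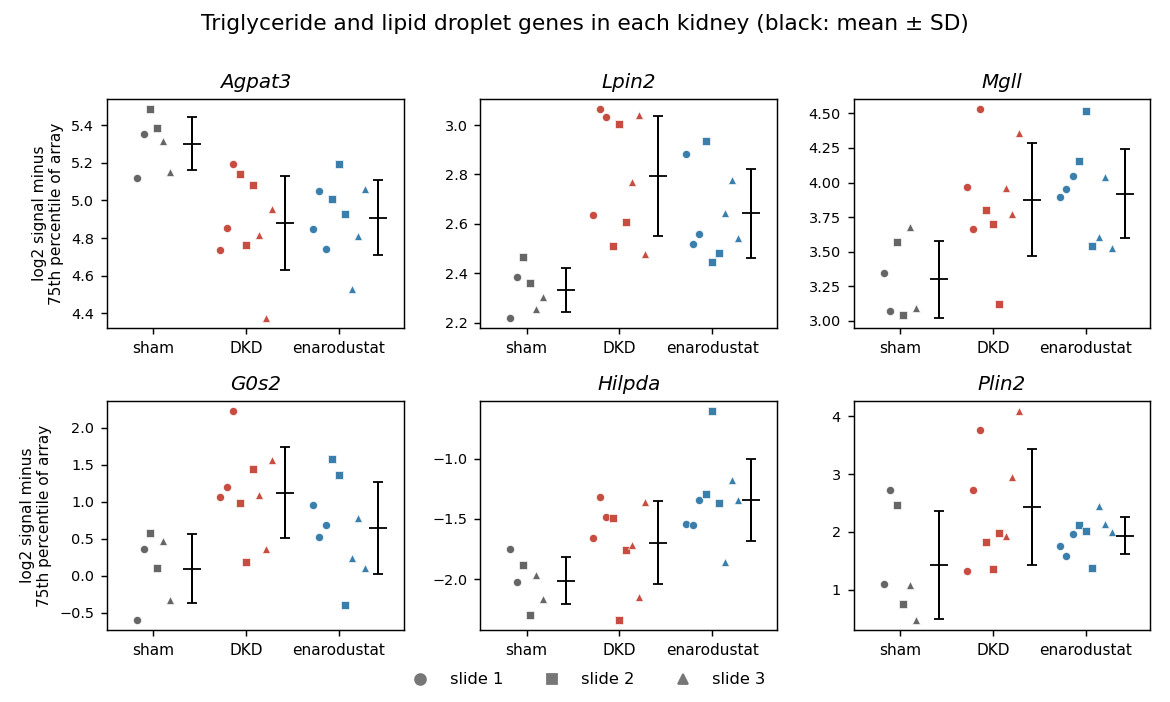
Levels of 6 triglyceride and droplet genes in each kidney, on the same scale and with the same markers as the plot of lipogenesis genes. Agpat3 is lower and Lpin2, Mgll and G0s2 are higher in DKD, while Plin2 ranges from 0.48 to 2.73 in sham and 1.32 to 4.08 in DKD arrays.

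Each slide held all 3 groups, and the 13 called members kept their direction within each of the 3 slides. They were called on these same arrays, so this agreement was partly built in. The same count was not made over all called genes. The changes in slides 1, 2 and 3 were −1.29, −0.65 and −1.49 for Srebf1, −1.15, −0.26 and −1.12 for Fasn, 0.63, 0.71 and 0.58 for Acacb and 0.90, 0.81 and 0.89 for Elovl6. G0s2 changed by 1.61, 0.54 and 0.94. For 7 of the 8 fallers slide 2 gave the smallest change, and Agpat3 was the exception. With slide as a block, 13 of 13 still passed. As every slide held the same number of arrays of each group, the block could not move the changes. It could alter only the spread against which they were judged.

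**Figure D3:**
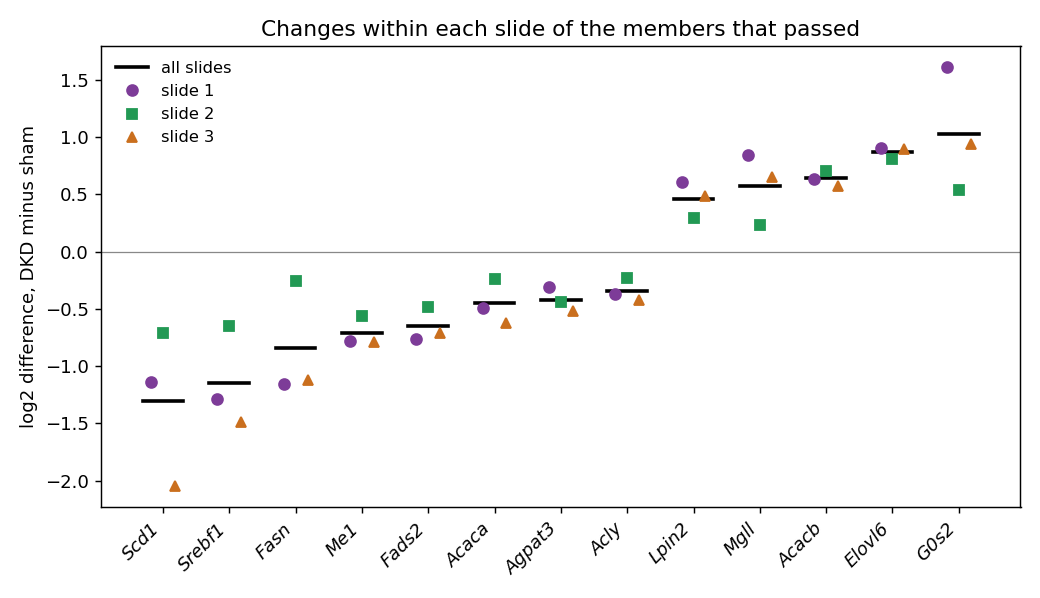
Log2 differences between DKD and sham within each slide (coloured markers) and over all slides (black bars) for the 13 members that passed. All within-slide values lie on the side of 0 of their black bar, which comes from the same arrays.

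The wider pathway was read from lists of other genes. In DKD against sham 11.6% of all genes tested passed (5.47% higher and 6.13% lower). The lists were not tested as sets, so their counts are a description. Of 18 genes that control SREBP-1 or work with it, 4 fell in DKD and 0 rose. They were Insig1, an SREBP target that holds SREBP in the endoplasmic reticulum (−0.84), Mlx, the partner of the carbohydrate-response factor ChREBP (−0.79), the liver X receptor Nr1h3 (−0.49) and Mbtps1, the protease that makes the first cut of SREBP (−0.25). Of 11 genes that supply citrate and NADPH, the citrate carrier Slc25a1 fell (−0.44) and the mitochondrial acetyl-CoA synthetase Acss1 rose (0.43). In the elongation cycle 3 of 10 tested genes fell, Hacd2 (−0.62), Hsd17b12 (−0.50) and Fads3 (−0.42). Genes of fatty acid uptake and activation moved both ways, with 4 risers and 3 fallers of 16. Lpl, the lipase that frees fatty acids from lipoproteins, fell by 2.19 ± 0.31, Acsm3 by 1.23 and the fatty acid transporter Cd36 by 1.17, while the fatty acid binding protein Fabp1 rose by 1.96 ± 0.42. Of 15 other glycerolipid genes, the acyltransferases Mogat2 (1.70) and Gpat3 (1.36) rose and Lpcat3 (−0.36) fell. Of 19 other droplet and lipolysis genes, Plin4 and Ddhd2 rose and 4 fell, the largest being the droplet-bound dehydrogenase Hsd17b11 (−1.42) and the carboxylesterases Ces1f (−0.88) and Ces1d (−0.71).

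Enarodustat against DKD asked what the drug changed in diabetic kidneys, and no member passed by limma. Of 34 members 0 were called, and 2 had an unadjusted p under 0.05, Elovl1 and Hilpda, while 0.716% of all genes tested passed and 10.9% had an unadjusted p under 0.05. The 127 genes that passed over the whole array were 85.0% higher, against 74.8% after quantile normalization and 69.5% in the authors' deposited values. Changes of the members ran from −0.50 for Plin2 to 0.36 for Hilpda, with a median absolute change of 0.10, the same as over all genes. The 95% interval of the change lay within 0.5 of zero for 25 members and within 1 for 32. For Srebf1 the change was 0.06 (95% interval −0.18 to 0.31), for Fasn 0.12 (−0.31 to 0.55), for Scd1 0.30 (−0.19 to 0.79), for Acaca −0.17 (−0.41 to 0.07) and for Acacb −0.09 (−0.37 to 0.19). These intervals come from the fit without a row term. All enarodustat arrays but few DKD arrays stood in the lower row, so the intervals hold any effect of row with that of the drug. They do not show that the drug had no effect. With slide row as a term 0 members and 20 genes passed. Comparisons with DKD and with sham share arrays, so their values are given side by side and not as independent results.

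On the brightest probes, Hilpda and Elovl1 came nearest to a call with the drug. Other probes of Lpin2 (−0.36), Me1 (0.39), Agpat3 (0.22) and Acaca (−0.30) also had an unadjusted p under 0.05 by limma. With the mean of all probes 4 members had an unadjusted p under 0.05 and 0 passed. Hilpda stood at −2.30 to −1.75 in sham (median −1.99), −2.34 to −1.32 in DKD (median −1.66) and −1.86 to −0.61 with enarodustat (median −1.34). The change from DKD was 0.36 ± 0.15 (adjusted p = 0.340), with 0.01, 0.77 and 0.28 in slides 1, 2 and 3. Elovl1, which makes very long saturated fatty acids, stood at 5.50 to 5.87 in sham, 5.57 to 6.54 in DKD and 5.28 to 5.83 with enarodustat, a change of −0.31 ± 0.11 (adjusted p = 0.256). G0s2 and Plin2 differed from DKD by −0.48 and −0.50, with intervals of −1.02 to 0.07 and −1.24 to 0.23. Among the related lists, the fatty acid binding proteins Fabp5 (0.76 ± 0.17) and Fabp4 (0.52 ± 0.09) rose with enarodustat over DKD and the phospholipase Ddhd2 fell (−0.39 ± 0.09), while 0 genes passed by limma in the lists of SREBP control, citrate supply, elongation and glycerolipid synthesis, where 0, 4, 1 and 4 had an unadjusted p under 0.05. Of 10 macrophage markers 0 passed by limma and 4 had an unadjusted p under 0.05, with a median change of 0.28 and group means of −0.40 in DKD and −0.07 with enarodustat. Of 10 proximal tubule markers 0 passed and 3 had an unadjusted p under 0.05, with a median change of −0.16. The part of these cells in the values of this comparison was not tested.

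**Figure D4:**
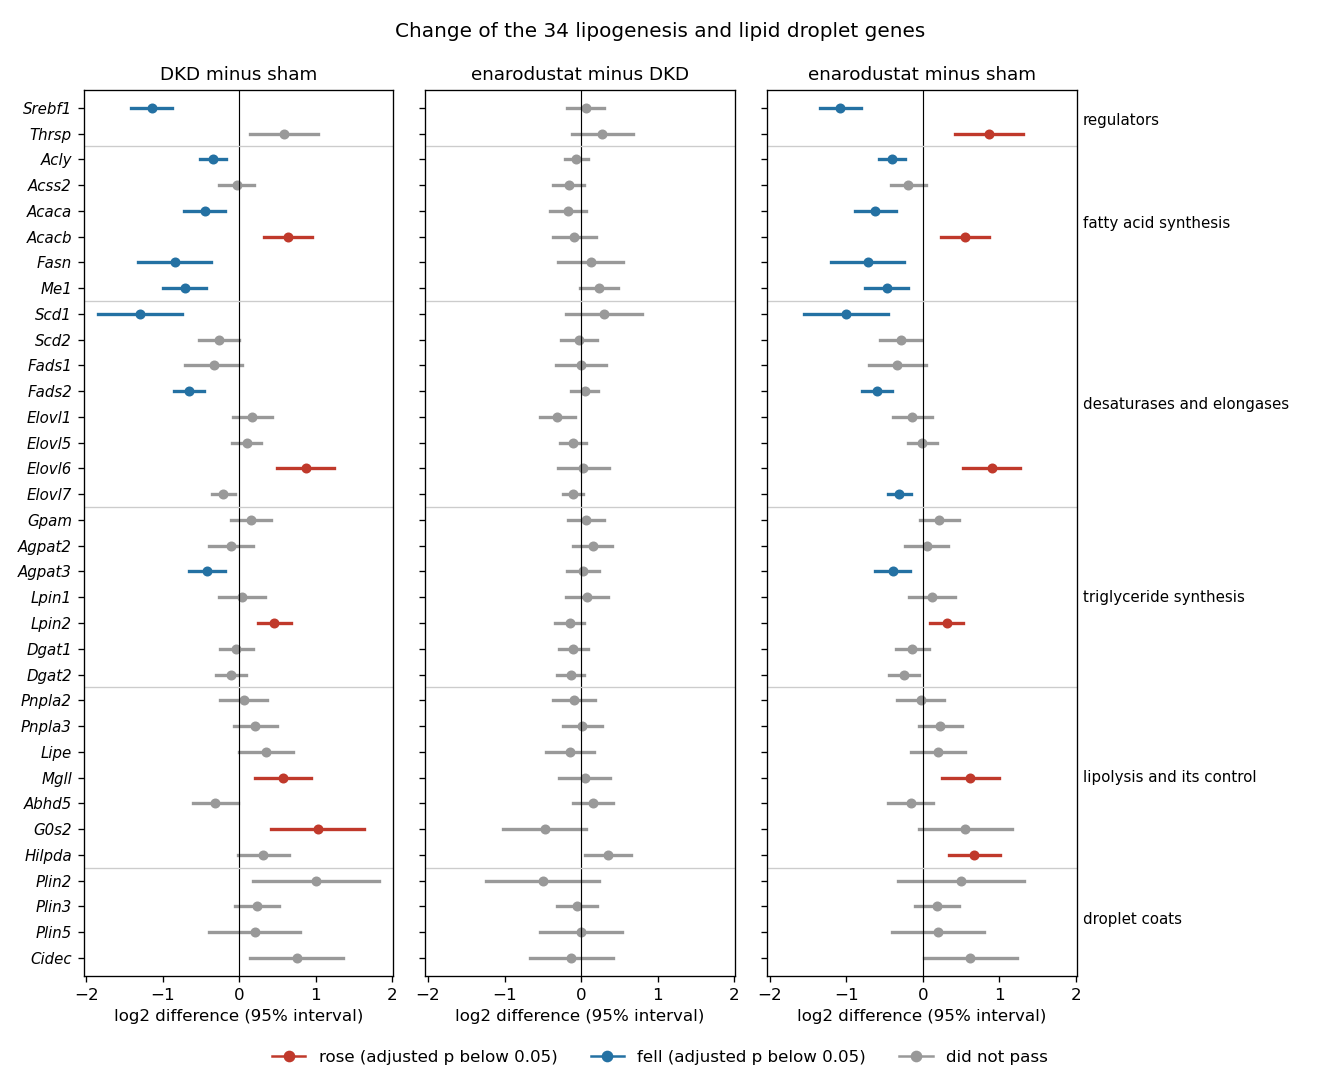
Log2 change of the 34 members in each comparison (points) with the 95% interval (lines), ordered by role, red where a gene rose, blue where it fell and grey where it did not pass. In enarodustat minus DKD all 34 are grey, between −0.50 and 0.36.

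Enarodustat-treated diabetic kidneys differed from sham kidneys in 15 of 34 members (44.1%), while 15.5% of all genes tested passed (8.74% higher and 6.75% lower). The array-wide calls were 1550 higher and 1198 lower, against 1014 and 1103 after normexp and 1245 and 1376 in the authors' deposited values. Risers were Acacb, Elovl6, Thrsp, Lpin2, Mgll and Hilpda, and fallers were Srebf1, Acly, Acaca, Fasn, Me1, Scd1, Fads2, Elovl7 and Agpat3. After background correction by normexp the members' split was 4 risers and 10 fallers. Srebf1 fell by 1.08 ± 0.13 (adjusted p = 1.15e-05), Scd1 by 1.00 ± 0.27 (adjusted p = 0.0125), Fasn by 0.72 ± 0.23 (adjusted p = 0.0365), Acaca by 0.62 ± 0.13 (adjusted p = 0.00214) and Fads2 by 0.60 ± 0.09 (adjusted p = 0.000188). Elovl6 rose by 0.90 ± 0.18 (adjusted p = 0.00167) and Acacb by 0.55 ± 0.15 (adjusted p = 0.0165). The second probe of Acacb changed by −0.38 against sham, and the mean of both, 0.083, did not pass. Thrsp rose by 0.86 ± 0.22 (adjusted p = 0.00828), with 7 of 9 arrays above the sham range, and Hilpda by 0.67 ± 0.16 (adjusted p = 0.00666), with 8 of 9 above it. A second probe of Thrsp changed by 0.41 against sham (unadjusted p = 0.0389 by limma). Elovl7, an elongase of long saturated fatty acids, lay below every sham array, at 3.18 to 3.44 against 3.49 to 3.82, and fell by 0.31 ± 0.07 (adjusted p = 0.00505). Acly fell by 0.40, Me1 by 0.47 and Agpat3 by 0.39, and Mgll rose by 0.62. A second probe of Agpat3 changed by −0.16 against sham (unadjusted p = 0.0871 by limma). Lpin2 rose by 0.31 ± 0.10 (adjusted p = 0.0459), with 0.036 for the mean of its probes, and it lost its call in 8 of the other settings. The call of Fasn ended in 5 of them, with a change of −0.34 under the row term. The groups did not overlap for 7 members, Acaca, Acacb, Acly, Elovl6, Elovl7, Fads2 and Srebf1, or 20.6%, while 4.94% of all genes did not overlap.

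Sham and enarodustat arrays occupied different rows throughout. With row as a term, set by the DKD arrays alone, 3 of the 15 passed, Srebf1, Fads2 and Agpat3, and the whole array gave 889 calls against 2748. Among the lost calls, changes were larger than in the main fit for Acacb (0.83), Me1 (−0.64), Scd1 (−1.13), Elovl6 (0.99), Elovl7 (−0.35) and Lpin2 (0.44). They were smaller for Acaca (−0.46), Fasn (−0.34), Thrsp (0.61), Mgll (0.43) and Hilpda (0.43), while Acly stayed at −0.40. After normexp Hilpda changed by 0.33 and no longer passed, and Thrsp changed by 0.50 and still passed. Of the related lists against sham, 4 of 18 SREBP control genes fell, among them Insig1 (−0.72) and Mlx (−0.64), while 15.5% of all genes tested passed. Scd3 (0.92) and Scd4 (0.70), paralogs of Scd1, rose. Signal shared between the probes of these paralogs was not tested. Principal cell markers, 7 of 8 of which rose against sham, averaged 0.65 to 1.30 with enarodustat. Of 10 proximal tubule markers 3 fell against sham (Slc34a1, Slc22a6 and Slc7a13), and their mean, 6.13 to 6.37 in sham and 5.83 to 6.09 with enarodustat, did not overlap. The part of either cell type in the changes of the members was not tested.

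Whether Srebf1 and its pathway varied together from kidney to kidney was asked over all 24 arrays after subtracting the group means. Srebf1 correlated with Acly at r = 0.54 (permutation p = 0.00676, adjusted p = 0.135 over 20 relations) and rho = 0.61 (permutation p = 0.0028, adjusted p = 0.056). Within slides 1, 2 and 3 r was 0.60, 0.43 and 0.56, and without sham 4 and DKD 6, the arrays farthest from the median of Srebf1, it was 0.59. With Acaca r was 0.49 (permutation p = 0.0182, adjusted p = 0.182), with Scd1 0.49 (permutation p = 0.0333, adjusted p = 0.185), with Fads2 0.45 and with Fasn 0.42. With Elovl6 it was −0.18, with Thrsp 0.09 and with Elovl5 0.02. Pnpla2 with its inhibitor G0s2 gave 0.15 and with its activator Abhd5 0.07, Hilpda with Plin2 gave 0.30, and the mean of the white adipocyte markers gave 0.17 with Cidec, 0.14 with Thrsp, −0.02 with Lipe and −0.42 with Scd1 (rho = −0.49). None of the 20 relations passed after adjustment by either measure. Some pooled values joined groups of opposite sign. For Srebf1 with Elovl6 r was 0.57 in sham, −0.77 in DKD and 0.06 with enarodustat. For Srebf1 with Elovl5 it was 0.78, −0.64 and 0.22. The values within groups were not tested. The permutations moved arrays within groups but across slides, so they made no allowance for slide.

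Kidneys of a group differed more in some members than in others. The SD across arrays had a median over the members of 0.19 in sham, 0.32 in DKD and 0.27 with enarodustat, and it was higher in DKD than in sham for 27 of 34 members. Plin2 had the largest SD in sham and in DKD, and Cidec with enarodustat (0.72). Acly varied least in sham (0.07) and Elovl7 least in both diabetic groups (0.12 and 0.07). These SDs rest on 6 or 9 kidneys and were not tested. The same count was not made over all genes, so it cannot be read as a trait of the members.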

How the data were processed

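The authors deposited 1 scanner file per array with spot intensity, from which Agilent Feature Extraction 12.1.1.1 had already subtracted background, per the file headers. Version 11.5.1.1 and limma appear in the submitters' processing notes, without a role. The authors' deposited processed values are log2 values per probe (columns with medians of 7.543 to 7.559), a scale found by comparison with the scanner files. Recomputed from median spot signals (normexp, offset 50, and quantile normalization), 762 of those 753816 values differed by more than 0.05. Control spots were left out, spots of a probe averaged, and the brightest probe stood for its gene, tested where well above background on at least 6 arrays. Probes were named through RefSeq accessions (GRCm38.p6): 32994 of 56605 matched. All 24 arrays entered 1 limma fit (limma 3.58.1 on R 4.3.3, files read by data.table, version 1.17.8) of log2 processed signal minus the 75th percentile, with group as the only term, on 17736 genes. P-values are two-sided and adjusted by Benjamini-Hochberg, with a threshold of 0.05, and "rose" and "fell" mean that this was passed. The script was tested on simulated data.

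The members and gene lists were chosen with earlier results of these data known. Members that passed are given with their values, and of the related lists at most 4 passing genes per comparison. The planned normexp on mean signals used median signals, chosen after seeing the data, since the files analysed hold no mean signal column. The series text counts mice per group, so samples were taken as separate mice. The number of arrays limits the precision. Alternatives tried were normexp, quantile normalization, the deposited values, filters on dim probes, slide and row terms, a replicate block, the mean of all probes, slides alone and leaving out enarodustat 3.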

Additional observations from a re-analysis of the deposited data

Results flagged for a closer look

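Of 102 groups of a member's levels, 3 held an array far from the rest of its group by Dixon's criterion, where chance alone gives about 1 in 20. DKD 9 had the lowest Acaca of its group, 0.37, with the next DKD array at 0.93. Enarodustat 2 had the highest Fads2, 1.29, with the next at 0.95. DKD 2 had the highest Pnpla2, 4.31, with the next at 3.63. The array of enarodustat 3, which carries the quality warning, was in none of these.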

How the results depend on the processing

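Of 372 values of members in DKD minus sham under other settings on all slides, 350 kept direction and side of the threshold, 17 lost the call, 1 gained it and 4 changed sign. In enarodustat minus DKD 353 kept both and 19 changed sign, and in enarodustat minus sham 325 kept both, 30 lost the call, 3 gained it and 14 changed sign. No called value changed sign. The calls gained were Elovl7 in DKD minus sham (−0.22 normexp) and Dgat2 in enarodustat minus sham. Dgat2 changed there by −0.28 (normexp), −0.24 (quantile) and −0.28 (deposited values), against −0.24 in the main fit (adjusted p = 0.0828). In DKD minus sham, calls ended for Acaca (row term, replicate block, mean of probes), Acly (quantile, deposited values, replicate block, mean of probes), Fasn (quantile, deposited values, row term), Mgll (no filter, row term, mean of probes), G0s2 (row term), Agpat3 (replicate block), and Acacb and Lpin2 (mean of probes). In enarodustat minus sham the row term ended all but Srebf1, Fads2 and Agpat3, and other settings ended Fasn (quantile, deposited values, replicate block, without enarodustat 3), Acly (quantile, deposited values), Me1 and Agpat3 (replicate block), Acacb and Mgll (mean of probes), Hilpda (normexp) and Lpin2 (normexp, quantile, deposited values, no filter, replicate block, mean of probes, without enarodustat 3). The cause of these losses was not tested. With the mean of all probes 1943 of 17736 genes passed in DKD minus sham, and 8 of 34 members (23.5%). With slide row as a term 20 genes passed in enarodustat minus DKD, and 889 genes and 3 members in enarodustat minus sham. With no filter 83 genes passed in enarodustat minus DKD. Within slides 1, 2 and 3 alone, where limma had fewer arrays, 15, 0 and 9 genes passed in DKD minus sham, 4, 3 and 0 in enarodustat minus DKD, and 36, 30 and 7 in enarodustat minus sham, with 0 members in any. In those slides 15, 7 and 13 members had an unadjusted p under 0.05 in DKD minus sham, 1, 1 and 1 in enarodustat minus DKD and 12, 9 and 6 in enarodustat minus sham. Over all 17736 genes these counts were 2202, 1656 and 1616, then 1309, 1217 and 544, and 2596, 2357 and 1483.

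Replicate numbers did not pair the samples: deviations from the group means of same-numbered arrays correlated above 0.1 in 10 of 21 pairs, and 3 of 24 arrays correlated best with their own number. Those 10 were all among the 15 pairs that shared a slide. For arrays of different groups and numbers, 37 of 48 pairs on the same slide correlated above 0.1. Across slides 12 of 120 did. With the replicate number as a block 1461 genes and 10 members passed in DKD minus sham, 66 and 0 in enarodustat minus DKD, and 2200 and 11 in enarodustat minus sham.

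Signs that turned were all of values that had not passed. In DKD minus sham they were Acss2 (0.043 quantile, 0.056 deposited values), Dgat1 (0.030 replicate block) and Pnpla3 (−0.19 mean of probes). In enarodustat minus DKD, Pnpla3 changed by −0.032 (normexp), −0.033 (quantile), −0.014 (deposited values), −0.067 (row term) and −0.026 (without enarodustat 3). Agpat3 changed by −0.024 (quantile), −0.020 (deposited values) and −0.17 (row term), Plin5 by 0.0069 (quantile) and 3.0e-05 (deposited values), Mgll by −0.020 (deposited values) and −0.083 (row term), Fads1 by 0.0015 (deposited values) and Elovl6 by −0.083 without enarodustat 3. With the row term Acacb changed by 0.097, Scd2 by 0.0090, Fads2 by −0.080, Agpat2 by −0.064 and Abhd5 by −0.0036. In enarodustat minus sham Elovl5 changed by 0.0096 (normexp), 0.030 (quantile) and 0.038 (deposited values), Pnpla2 by 0.054 (quantile) and 0.052 (deposited values), Pnpla3 by −0.021 (normexp) and −0.029 (mean of probes) and Agpat2 by −0.022 (mean of probes). There the row term gave −0.28 for Agpat2, −0.11 for Lipe, −0.77 for Plin2, −0.20 for Plin3, −0.36 for Plin5 and −0.38 for G0s2.

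Cidec was near background in sham, and the other 33 members were well above background on all 24 arrays. RNA was not measured per cell, protein and lipid were not analysed here, and each group was a single time point and dose.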
